A study of Homo sapiens with 6 samples.

Results

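The transcripts examined here are those of 10 genes that define the pigment cell lineage, namely the transcription factors MITF and SOX10, the melanin enzymes TYR, TYRP1 and DCT, the melanosome proteins PMEL, MLANA and GPR143, and the transporters OCA2 and SLC45A2. They were chosen by gene symbol, and all 10 were found once each among the 30015 genes listed. RNA-seq was performed on HMV-II cells, an established human mucosal melanoma line of vaginal origin, in 3 libraries labelled Vector (genotype WT) and 3 labelled shEZH2 (genotype EZH2 knockdown), neither given any further treatment. The study's methods describe stable lines made with lentiviral shRNA and puromycin selection, with a scrambled shRNA as the control, and the table heads the groups shNC and sh1. All libraries therefore came from 1 cell line, and an effect of the hairpin other than on EZH2 cannot be told apart from the knockdown. Nothing states that the replicates were separate cultures, so p-values measure only the spread between these libraries.

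Melanocytes make melanin inside melanosomes, organelles related to lysosomes. SOX10 drives transcription of MITF, the master regulator of the lineage, and MITF binds E-box sequences in the promoters of pigment genes. TYR, TYRP1 and DCT are related copper- or zinc-binding enzymes, with TYR (tyrosinase) carrying out the rate-limiting step and DCT and TYRP1 acting later on the way to eumelanin. PMEL forms the fibrils on which melanin is laid down, and the pumps and transporters of the melanosome membrane set the conditions under which tyrosinase works. EZH2 is the enzyme of the polycomb repressive complex that methylates histone H3 at lysine 27, a mark of silent genes.

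The sequences of the tyrosinase family promoters are shown because these 3 enzymes carry the same short element and were called differently below. The part of this element in their changes was not tested. The E-box hexamer CATGTG, extended to TCATGTGC in the element known as the M-box, was searched on both strands of the 250 bases before each annotated start (RefSeq, GRCh38.p14). Of the 10 genes, 7 matched an entry by symbol, in 10 windows. The capitals mark CATGTG, or CACATG where the match lies on the other strand. The windows are chr11:89177625-89177874 on the plus strand for TYR, chr9:12693135-12693384 on the plus strand for TYRP1, and chr13:94479683-94479932 on the minus strand for the first of the 2 annotated starts of DCT.
TYR: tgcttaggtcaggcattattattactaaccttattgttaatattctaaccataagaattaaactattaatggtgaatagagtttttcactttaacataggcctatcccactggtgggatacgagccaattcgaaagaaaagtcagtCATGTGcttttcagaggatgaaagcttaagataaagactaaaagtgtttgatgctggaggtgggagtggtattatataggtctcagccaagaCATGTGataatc
TYRP1: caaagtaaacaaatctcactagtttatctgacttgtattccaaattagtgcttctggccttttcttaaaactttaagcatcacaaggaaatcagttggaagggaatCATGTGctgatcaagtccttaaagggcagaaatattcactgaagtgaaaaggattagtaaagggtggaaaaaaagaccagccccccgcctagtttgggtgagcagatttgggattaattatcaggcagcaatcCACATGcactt
DCT: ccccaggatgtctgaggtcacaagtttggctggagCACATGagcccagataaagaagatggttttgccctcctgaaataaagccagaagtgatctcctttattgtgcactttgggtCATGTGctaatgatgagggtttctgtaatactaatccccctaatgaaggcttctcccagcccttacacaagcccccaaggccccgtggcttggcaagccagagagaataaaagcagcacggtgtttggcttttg

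Each of these windows held CATGTG at 2 places. With 10 bases on each side, the matches that carry the longer TCATGTGC are set out below, each read on the strand of the hexamer and named with the position of its first base on the gene strand, counted back from the annotated start. GPR143 is included since it holds 2 of them.
TYR at -104: aaaagtcagtCATGTGcttttcagag
TYRP1 at -144: ggaagggaatCATGTGctgatcaagt
DCT at -134: cactttgggtCATGTGctaatgatga
DCT at -215: tatctgggctCATGTGctccagccaa
GPR143 at -61: ggggcggcatCATGTGccctgggcct
GPR143 at -33: ctgcctgggtCATGTGctgggcgggc

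In all, CATGTG was found 9 times, in 5 of the 7 genes with an entry, against 9.42% of all 35116 promoter windows of this length, and TCATGTGC, which was added after the sequences had been seen, in 4 genes against 0.493% of windows. The remaining gene, OCA2, holds CATGTG at -153 without the longer form. CACGTG, a further E-box, was found in 0 of the 7 genes and in 6.34% of all windows. A gene counted once if any of its windows held a match, while the shares are per window, so the measures are not alike. The hexamers ACAAAG and ACAATG, which fit the consensus of SOX factors, were found in 13.7% and 9.29% of all windows. Among the 10 windows of these genes, each was found once in a window of MITF, and ACAAAG once in OCA2. These are matches of letters and say nothing on whether a factor was bound in HMV-II cells.

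The libraries held 13400290 to 19128939 counted reads, and the 10 genes took 0.501% to 0.630% of them. EZH2, the targeted gene, had 483, 437 and 552 normalized counts in the Vector libraries and 237, 247 and 225 in the shEZH2 libraries (log2 fold change -1.04, SE 0.14, limma adjusted p = 0.0142). Normalized counts are reads per gene divided by 1 size factor per library. A gene is called here when its unadjusted p is under 0.05 and it changed more than 1.5-fold in either direction, the threshold of the study, and adjusted p-values are Benjamini-Hochberg values over the 15251 genes tested. Vector replicate 2 stood apart, with a mean chi-square per gene of 119 and 117 against the other Vector libraries, which differed from each other by 2.14, while pairs of shEZH2 libraries differed by 6.49 to 23.9. The change of each of the 10 genes is therefore also given without that library. The same is given for genes of the lists where its absence alters the call, and for some others.

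Levels were first compared between genes, as RPKM, the reads of a gene scaled to its length and to the counted reads of its library, to ask which pigment genes these cells transcribe. The length is the single value listed for each gene, whichever isoforms the cells express. The departure of Vector replicate 2 along gene length, given below, also enters these levels. PMEL stood highest, with 971 ± 149 RPKM (SD, n = 3) in Vector and 937 ± 39.7 (SD, n = 3) in shEZH2 cells. SOX10 followed with 293 ± 19.7 and 254 ± 25.6 RPKM, and TYR with 130 ± 32.1 and 67.5 ± 1.56 RPKM. These 3 genes were above 98.0% or more of the genes tested by mean RPKM.

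DCT, OCA2 and GPR143 formed a middle group between 26.6 and 35.9 mean RPKM in either condition, and neighbours in their order overlapped between libraries in both groups. MITF had 12.8 ± 1.58 RPKM in Vector and 15.7 ± 2.25 in shEZH2 cells. The lower end of the order differed between the conditions. In Vector cells it ran from MLANA (8.60 ± 3.90 RPKM) and SLC45A2 (6.14 ± 0.557), which overlapped, down to TYRP1 (4.58 ± 0.151). TYRP1 lay below SLC45A2 without overlap, but not below MLANA, which was at 4.09 RPKM in Vector replicate 2 against 4.41 for TYRP1. In shEZH2 cells TYRP1 (15.3 ± 0.998 RPKM) and MLANA (15.0 ± 0.308) overlapped with each other and with MITF, and SLC45A2 (9.11 ± 0.280) was the lowest. TYRP1 thus moved from the last place among the 10 genes into a group with MITF and MLANA.

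**Figure D1:**
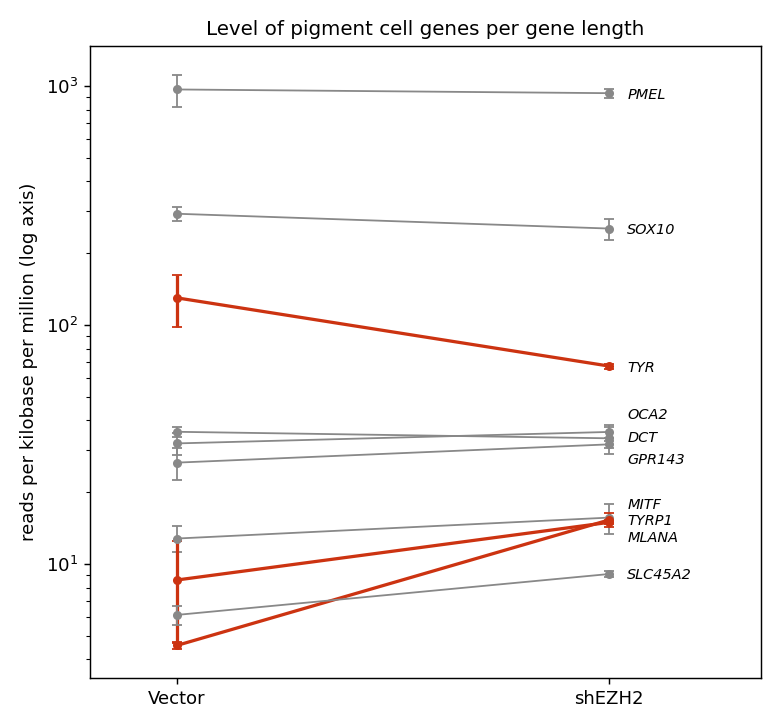
Mean level of the 10 genes in Vector and shEZH2 cells in RPKM on a log axis, with error bars of 1 SD over 3 libraries and lines joining the 2 means of a gene. Genes called between the groups are drawn in red, and TYRP1 rises from the lowest place at 4.58 to 15.3 while TYR falls from 130 to 67.5.

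The 10 genes did not move together after EZH2 knockdown. TYRP1 and MLANA were called higher, TYR was called lower and 7 were not called, which is 2 of 10 higher beside 7.55% of all genes tested and 1 of 10 lower beside 7.07%. The median log2 fold change was 0.16 over the 10 genes and 0.04 over all genes. After adjustment, TYRP1 alone passed 0.05, beside 4.12% of all genes. Vector and shEZH2 values were fully apart for 4 of the 10, beside 34.8% of all genes. Without Vector replicate 2, TYRP1 was still called higher and TYR lower, beside 7.05% and 5.64% of all genes, MLANA was not called, and the median was 0.11. An adjusted p under 0.05 was then reached by 5 of the 10, beside 18.9% of all genes. That fit takes the Vector spread from the 2 Vector libraries that were closest to each other.

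TYRP1 (ENSG00000107165; chr9:12685439-12710290, plus strand, GRCh38), which encodes a tyrosinase-related enzyme of eumelanin synthesis that also stabilizes tyrosinase, had 283, 257 and 285 normalized counts in replicates 1, 2 and 3 of Vector, and 843, 942 and 876 in those of shEZH2. Every shEZH2 library was far above every Vector library. TYRP1 rose 3.21-fold (log2 fold change 1.68, SE 0.13, 95% interval 1.38 to 1.98, limma adjusted p = 0.00317). Its values were even within each group, with a coefficient of variation of 5.66% in Vector and 5.72% in shEZH2 cells. Without Vector replicate 2 the log2 fold change was 1.64, and with any 1 library left out it stayed between 1.64 and 1.72. Permuting the labels exactly, in all 20 arrangements and two-sided, gave p = 0.1, the smallest value that 3 libraries against 3 allow. The antisense transcript LURAP1L-AS1 overlaps TYRP1 over 11737 bases. It had a mean of 95.1 normalized counts and a log2 fold change of -0.39, short of the size needed for a call. A link to TYRP1 was not tested.

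TYR (ENSG00000077498; chr11:89177452-89295759, plus strand, GRCh38), which encodes tyrosinase, had 7391, 4388 and 7250 normalized counts in replicates 1, 2 and 3 of Vector, and 3097, 3194 and 3153 in the shEZH2 libraries. The shEZH2 libraries were nearly equal to one another and all below the Vector libraries, of which replicate 2 was by far the nearest to them. TYR fell 1.96-fold (log2 fold change -0.97, SE 0.22, 95% interval -1.48 to -0.47, limma adjusted p = 0.0532; exact permutation p = 0.1). Without Vector replicate 2 the fall was 2.33-fold, a log2 fold change of -1.22 (limma adjusted p = 2.43e-06). That adjusted p takes the Vector spread from the 2 libraries that were closest to each other, and with any other library left out it ran from 0.134 to 0.226. TYR was called lower whichever library was left out. The pseudogene CBX3P7 overlaps TYR on the opposite strand over 502 bases, with a mean of 141 normalized counts and a log2 fold change of -1.91, and its reads cannot be told apart from those of TYR there without strand.

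DCT (ENSG00000080166), which encodes dopachrome tautomerase, the third enzyme of the family, had 4259, 4460 and 4308 normalized counts in the Vector and 3390, 4453 and 3934 in the shEZH2 libraries. The groups overlapped, since shEZH2 replicate 2 was as high as the Vector libraries. The log2 fold change was -0.15 with a 95% interval from -0.50 to 0.19, and without Vector replicate 2 it was -0.13. Of the enzymes whose promoters are printed above, TYRP1 was thus called higher, TYR was called lower and DCT was not called. The 95% interval of DCT overlapped that of TYR, which ran from -1.48 to -0.47.

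The balance within the family was read from ratios of RPKM in each library. The ratio of TYR to TYRP1 was 32.4, 21.2 and 31.5 across Vector replicates 1 to 3, against 4.56, 4.20 and 4.47 across those of shEZH2. The mean log2 ratio was 4.80 ± 0.34 (SD, n = 3) in Vector and 2.14 ± 0.06 (SD, n = 3) in shEZH2 cells, a difference of -2.66 (exact permutation, two-sided, p = 0.1). The ratio of TYRP1 to DCT was between 0.116 and 0.134 in Vector and between 0.427 and 0.501 in shEZH2 cells, without overlap. The ratio of TYR to DCT was 2.46 in Vector replicate 2 and 4.21 or more in the other Vector libraries, against 1.79 to 2.29 in shEZH2 cells. These ratios share reads with the tests above and are not further evidence.

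**Figure D2:**
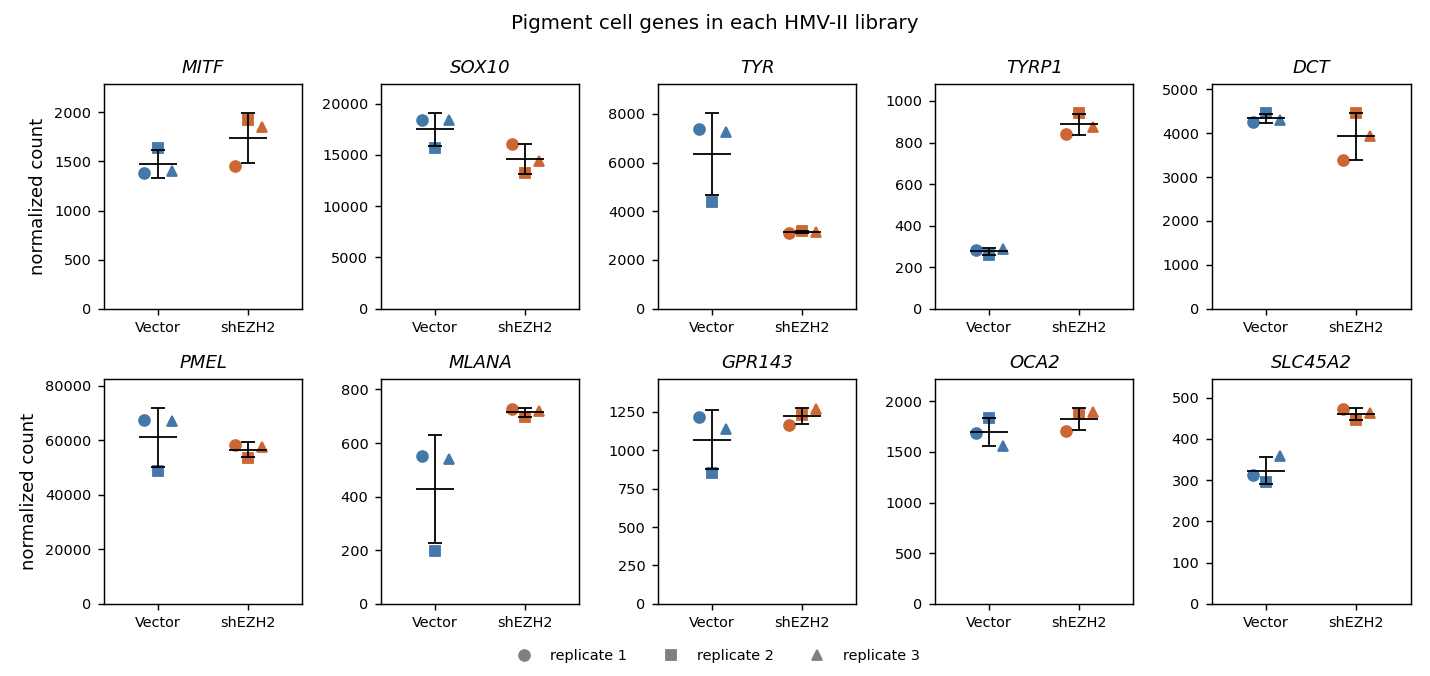
Normalized counts of the 10 genes in each library on linear axes from 0, with marker shape for the replicate, a horizontal bar for the mean and error bars of 1 SD over 3 libraries. TYRP1, MLANA and SLC45A2 are higher in all shEZH2 libraries and TYR is lower, while Vector replicate 2 (square) lies far below its group in MLANA, at 197, and in TYR, at 4388.

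The transcription factors above these enzymes were not called. MITF (ENSG00000187098; chr3:69739435-69968337, plus strand), the basic helix-loop-helix factor of the lineage, had 1386, 1640 and 1403 normalized counts in the Vector and 1452, 1920 and 1853 in the shEZH2 libraries. Vector replicate 2 overlapped the shEZH2 group, in which replicate 1 was the lowest. On the log2 scale the change was 0.23 with a 95% interval from -0.14 to 0.60 (limma adjusted p = 0.403), and without Vector replicate 2 it was 0.31. Counts were made per gene, so the melanocyte form of MITF, which starts from its own promoter, cannot be told apart from the other isoforms.

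SOX10 (ENSG00000100146), a factor of the neural crest and its pigment and glial descendants, had 18376, 15657 and 18441 normalized counts in the Vector and 16093, 13186 and 14435 in the shEZH2 libraries. Only Vector replicate 2 reached into the shEZH2 range. The log2 fold change was -0.26 with a 95% interval from -0.64 to 0.11 (limma adjusted p = 0.358). Without Vector replicate 2 it was -0.34 (limma adjusted p = 0.0302), short of the size needed for a call. With any other library left out, the limma adjusted p ran from 0.421 to 0.605. The gene lies wholly within the span of POLR2F on the opposite strand, whose mean was 1073 normalized counts. Since the strandedness of the libraries is not given in the sources used here, reads in such overlaps cannot be assigned to 1 strand.

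Of the melanosome proteins, MLANA (ENSG00000120215; chr9:5890802-5910606, plus strand), the small membrane protein known as Melan-A or MART-1 that takes part in PMEL maturation, had 550, 197 and 541 normalized counts in the Vector and 727, 696 and 720 in the shEZH2 libraries. All shEZH2 libraries were above all Vector libraries, but Vector replicate 2 held less than any other library by a wide margin. MLANA rose 1.84-fold (log2 fold change 0.88, SE 0.38, 95% interval 0.00 to 1.75, limma adjusted p = 0.214). Its unadjusted p was just inside the threshold (limma model across all genes, p = 0.0495; exact permutation p = 0.1). The call was lost without Vector replicate 2, where the rise was 1.31-fold, a log2 fold change of 0.39 (limma adjusted p = 0.0237), and without any 1 of the shEZH2 libraries, where the log2 fold change stayed between 0.86 and 0.90. MLANA lies within the span of KIAA2026 on the opposite strand, whose mean was 245 normalized counts with a log2 fold change of -0.21.

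PMEL (ENSG00000185664) had 67512, 48607 and 66856 normalized counts in the Vector and 58383, 53354 and 57681 in the shEZH2 libraries. Vector replicates 1 and 3 were above the shEZH2 libraries and replicate 2 was below them. On the log2 scale the change was -0.10 with a 95% interval from -0.58 to 0.38, and without Vector replicate 2 it was -0.25 (limma adjusted p = 0.0730). CDK2 overlaps PMEL on the other strand over 6016 bases and had a mean of 8214 normalized counts and a log2 fold change of 0.13.

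GPR143 (ENSG00000101850), the receptor of the melanosome membrane whose loss causes ocular albinism, had 1214, 850 and 1137 normalized counts in the Vector and 1165, 1229 and 1269 in the shEZH2 libraries. The groups overlapped, and Vector replicate 2 was again the lowest. The log2 fold change was 0.21 with a 95% interval from -0.17 to 0.59, and without that library it was 0.05. GPR143 holds the longer TCATGTGC element at 2 places and was not called with or without Vector replicate 2. TBL1X overlaps it on the opposite strand over 15692 bases, with a mean of 970 normalized counts and a log2 fold change of -0.36.

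SLC45A2 (ENSG00000164175; chr5:33944616-33984730, minus strand), a melanosome transporter whose variants affect skin colour, had 313, 296 and 359 normalized counts in the Vector and 473, 445 and 462 in the shEZH2 libraries. The groups did not overlap. On the log2 scale the change was 0.52 with a 95% interval from 0.20 to 0.83 (limma adjusted p = 0.0821), a 1.43-fold rise that is below the 1.5-fold needed for a call. It was 0.45 without Vector replicate 2 and reached 0.60, past that size, without Vector replicate 3. Of the 10 genes SLC45A2 lay just outside the threshold and MLANA just inside it.

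OCA2 (ENSG00000104044), which encodes a chloride-conducting protein of the melanosome membrane, had 1691, 1838 and 1562 normalized counts in the Vector and 1704, 1877 and 1898 in the shEZH2 libraries. The groups overlapped and the log2 fold change was 0.11, with a 95% interval from -0.20 to 0.41, or 0.17 without Vector replicate 2. Both OCA2 and GPR143 changed sign, to -0.045 and -0.0052, when a trend along gene length was removed from each library.

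**Figure D3:**
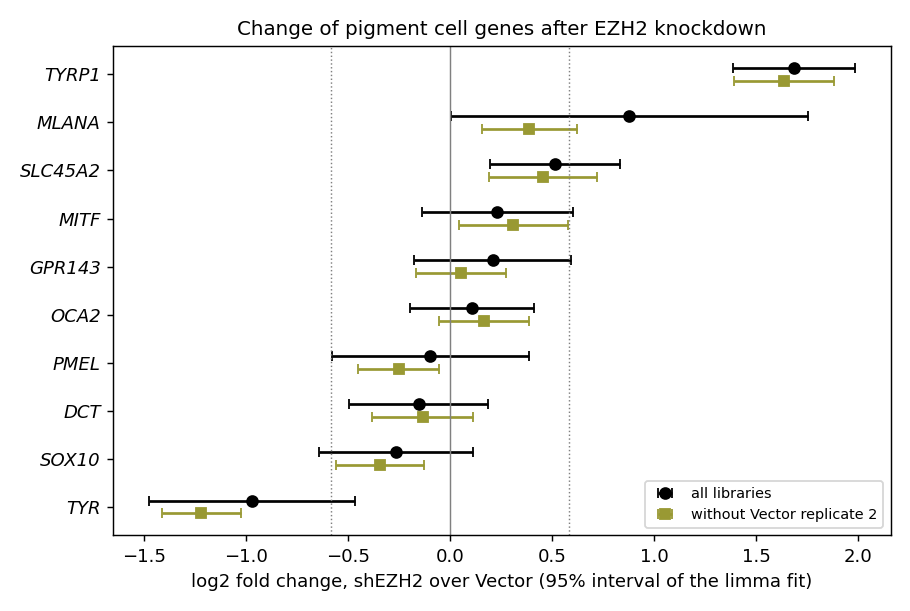
Log2 fold change of shEZH2 over Vector for the 10 genes with the 95% interval of the limma fit, for all 6 libraries (circles) and without Vector replicate 2 (squares), with dotted lines at a 1.5-fold change in either direction. The points of TYRP1 and TYR stay past the dotted lines in both fits, with TYR moving from -0.97 to -1.22, and MLANA moves from 0.88 to 0.39.

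The departure of Vector replicate 2 went along gene length and touched these genes unevenly. Relative to the mean of the other Vector libraries, its median log2 difference was -0.54 in quintile 1 of the genes tested, which holds the shortest, -0.37 in quintile 2, -0.07 in quintile 3, 0.13 in quintile 4 and 0.42 in quintile 5. MITF and DCT, with 7181 and 7543 bases in the table, belong to quintile 4 and differed by 0.23 and 0.06. PMEL, with 3901 bases in quintile 3, differed by -0.47. The other 7 genes, from 2486 to 3741 bases long, fall in quintile 2, where MLANA differed by -1.47, TYR by -0.74, GPR143 by -0.47, SOX10 by -0.23, SLC45A2 by -0.18, TYRP1 by -0.14 and OCA2 by 0.18. MLANA stood at percentile 5.81 and TYR at percentile 26.6 of their quintile in this respect, while TYRP1 was nearer to 0 than the median of the same quintile. With a length trend removed from each library, the log2 fold change was 0.71 for MLANA, -1.15 for TYR (limma adjusted p = 0.00333) and 1.57 for TYRP1 (limma adjusted p = 0.000869), all still called. In the same fit PMEL was at -0.20, SOX10 at -0.39, DCT at -0.07, MITF at 0.31 and SLC45A2 at 0.36, none of them called.

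**Figure D4:**
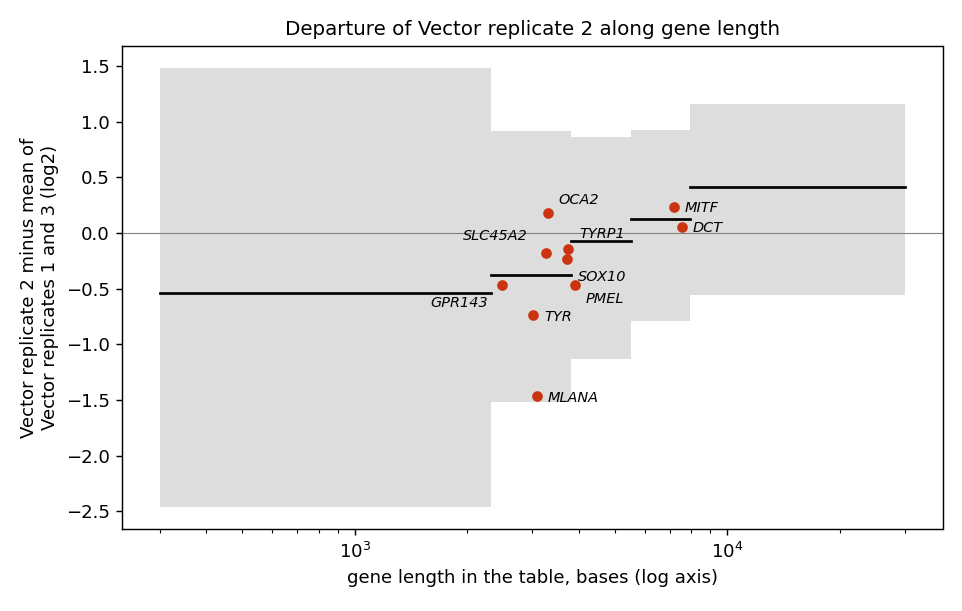
Log2 difference of Vector replicate 2 from the mean of Vector replicates 1 and 3 against gene length on a log axis, with the 10 genes as red points and, for each length quintile of the genes tested, the median as a black line and the range from the 5th to the 95th percentile in grey, the outer quintiles being cropped at the axis ends. The median runs from -0.54 to 0.42 with length, and MLANA lies at -1.47.

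The identity of the cells was read from markers. The summed normalized counts of the 10 pigment cell genes were 78191 to 102975 in Vector and 81296 to 87327 in shEZH2 libraries. Of 23 markers of keratinocytes, epithelium, fibroblasts, endothelium, leukocytes and Schwann cells, 17 were listed and 7 had a mean of at least 10 normalized counts. Their sum was 4120 to 4784 in Vector and 4682 to 4886 in shEZH2 libraries, most of it from the Schwann cell markers, which neural crest derivatives share, with sums of 3362 to 3654 and 3417 to 3819. Only LUM among them was called, with a log2 fold change of 0.74. Apart from the Schwann cell markers, 4 were tested. KRT10, a keratin of keratinocytes, had a mean of 445 normalized counts and CDH1, the epithelial cadherin that melanocytes share, a mean of 378. LUM, a matrix gene of fibroblasts, had 120 to 166 in Vector and 209 to 275 in shEZH2 libraries, and VWF, an endothelial gene, a mean of 29.2. Of the rest, COL1A1, COL3A1, PDGFRB, DCN, EPCAM, KRT14, PECAM1 and CD14, had at most 10.5 normalized counts in any library, and PTPRC, the pan-leukocyte marker, had 5.09 to 11.6. The part of these genes in the changes of the pigment cell genes was not tested. In bulk RNA, fewer pigmented cells and less RNA per cell cannot be told apart.

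The other genes of the pathway were taken from 5 lists, and called genes are named below. Of 20 regulators of the lineage, 16 were tested, 3 were higher and 1 was lower, beside 7.55% and 7.07% of all genes tested. The median log2 fold change was -0.10, beside 0.04 over all genes. The higher ones were TFEC, TFAP2A and TFEB. TFEC and TFEB belong to the same family of factors as MITF. TFEC had 3.14, 3.49 and 7.13 normalized counts in the Vector and 47.6, 51.1 and 39.1 in the shEZH2 libraries (log2 fold change 3.13, SE 0.37, limma adjusted p = 0.00967) from a level near the detection limit. Its Vector mean of 4.59 was below the minimum mean of 10 set for testing, so it was tested only through its shEZH2 values. Its call, and its place among the 3 higher genes, carry that limit. TFEB rose by 0.65 (log2), starting at 41.6 normalized counts on average, and its call was lost without Vector replicate 3, shEZH2 replicate 1 or shEZH2 replicate 3. TFE3, the remaining member of that family on the list, had a log2 fold change of 0.11.

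TFAP2A, a factor that acts with MITF on pigment genes, rose by 0.68 (log2), its mean going from 1856 to 2976 normalized counts (limma adjusted p = 0.0279). ERBB3, a receptor of the neural crest lineage, fell by 0.62 on the log2 scale. Its call was lost without shEZH2 replicate 1 or without Vector replicate 2, where the log2 fold change was -0.43. LEF1, a factor of Wnt signalling that acts on MITF, was below the Vector group in all shEZH2 libraries, with a log2 fold change of -0.39 that is short of a call. CREB1 had the lowest log2 fold change of the list after ERBB3, -0.44. PAX3, which acts on MITF with SOX10, had 326 to 362 normalized counts in the Vector and 325 to 347 in the shEZH2 libraries, and KIT was at or under 1.02 in every library.

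Of 12 further pigment genes, all tested, 1 was higher and 4 were lower, beside 7.55% and 7.07% of all genes. The median log2 fold change was -0.06, beside 0.04 over all genes. These calls were the same with each library left out in turn. TRPM1, a cation channel of melanocytes and a known MITF target, had 22.0, 29.1 and 26.5 normalized counts in the Vector and 77.1, 51.9 and 83.1 in the shEZH2 libraries (log2 fold change 1.40, SE 0.26, limma adjusted p = 0.0318). ATP7A, the copper pump that supplies tyrosinase, had 252, 421 and 273 normalized counts in the Vector and 110, 161 and 123 in the shEZH2 libraries (log2 fold change -1.24, SE 0.24, limma adjusted p = 0.0367). Without Vector replicate 2 the log2 fold change of ATP7A was -1.01. TYR was called lower as well, and a link between these genes was not tested.

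SLC24A4, MFSD12 and IRF4 were the other genes of that list called lower. The log2 fold change of SLC24A4, an ion exchanger linked to pigmentation, was -1.06 from a mean of 40.3 normalized counts, or -0.82 without Vector replicate 2. MFSD12, which is required for the import of cysteine into melanosomes, had a log2 fold change of -0.78 (limma adjusted p = 0.0541), or -0.63 without Vector replicate 2. IRF4, which acts with MITF on the TYR gene, had 1781, 3405 and 1918 normalized counts in the Vector and 1092, 1229 and 1327 in the shEZH2 libraries, a log2 fold change of -0.90 (limma adjusted p = 0.0907) and of -0.61 without Vector replicate 2. The ion exchanger SLC24A5, the melanosome protein GPNMB and the small GTPases RAB32 and RAB38 were not called, with log2 fold changes between -0.09 and 0.12. Without Vector replicate 2, RAB38 and RAB32 turned from 0.12 and 0.10 to -0.19 and -0.22, still without a call.

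Of 19 genes of melanosome biogenesis and transport, all tested, 0 were higher and 1 was lower in limma. Over all genes these shares were 7.55% and 7.07%. The median was -0.02, beside 0.04 over all genes. The lower gene was LYST, a regulator of lysosome-related organelles, with a log2 fold change of -0.92 (limma adjusted p = 0.0781), or -0.70 without Vector replicate 2. BLOC1S1 had the highest value of that list, 1.24 with a 95% interval from -0.58 to 3.07, and Vector replicate 2 held 23.3 normalized counts where Vector replicates 1 and 3 held 214 and 207. Neither MLPH, RAB27A nor MYO5A, which together carry melanosomes along actin, was called, and MLPH turned from 0.05 to -0.09 without Vector replicate 2. BLOC1S2 was called higher without Vector replicate 3.

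Of 16 other genes described as MITF targets, 15 were tested, 3 were higher and 2 were lower, beside 7.55% and 7.07% of all genes. The median was 0.13, beside 0.04 over all genes. CEACAM1, a cell adhesion molecule, fell by 1.00 (log2), its mean going from 994 to 501 normalized counts (limma adjusted p = 0.0176). TBX2, a T-box factor, fell by 0.68 on the log2 scale (adjusted p = 0.0338). MET, ACP5 and SCD rose by 0.70, 0.70 and 0.61 on that scale. ACP5 lost its call without Vector replicate 2, where its log2 fold change was 0.51. MET and SCD lost theirs without Vector replicate 1 or 3 or shEZH2 replicate 2 or 3. Thus 1 to 3 of the list were higher with a library left out, beside 849 to 1525 of all 15251 genes tested.

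The last list held 11 genes that mark melanoma cells with low MITF, of which 9 were tested. Of these, 4 were higher and 1 was lower, beside 7.55% and 7.07% of all genes. The median was 0.54, beside 0.04 over all genes. JUN, LOXL2 and FOSL1, which are among the higher genes, rose by 1.03, 0.84 and 0.69 on the log2 scale. TNC, a matrix glycoprotein, had a log2 fold change of -1.40 (limma adjusted p = 0.0303), or -1.11 without Vector replicate 2. The receptors AXL, NGFR and EGFR had log2 fold changes of 0.49, 0.54 and 0.41 without a call. Without Vector replicate 2 FOSL1 lost its call, at a log2 fold change of 0.52, and AXL and EGFR gained one, at 0.86 and 0.71. NGFR gained a call without Vector replicate 1 or 3 or shEZH2 replicate 2. MITF itself was not called in the same libraries.

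The genes whose values over the 6 libraries were most like those of a pigment cell gene were ranked by Pearson's r of log2(normalized count + 1) among 11890 genes with a mean of at least 50, as a description over libraries that share depth and group. TYRP1 was matched most closely by ANKRD1 (r = 0.999), GM2A (r = 0.999) and TUBB4A (r = 0.998), and 336 genes had an r above 0.95. MITF was matched by C1orf112, RALGPS2 and MME, SOX10 by ARFGAP1, FAHD2A and VSTM2B, and PMEL by TJAP1, ANAPC16 and LBH, all with an r from 0.988 to 0.997. None of the 12 genes is a pigment cell gene of the lists above, and an r above 0.95 was reached by 45 genes for MITF, 35 for SOX10 and 117 for PMEL.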

How the data were processed

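Per the labels, poly-A RNA of HMV-II cells was sequenced on an Illumina NovaSeq. The authors used featureCounts (1.5.0-p3) for counting and DESeq2 1.20.0 for their comparison. The aligner and strandedness are not given in the sources used here. The deposited signal values are reads per gene divided by 1 size factor per library. Dividing by the smallest value of a library gave whole numbers for 100% of genes (tolerance 0.01), and so the counts. Single-library columns not used numbered 0, and the authors' fold changes and p-values were not used. The labels name hg19, but the table's coordinates are GRCh38, since 47.9% of 20847 genes share a start or end with RefSeq GRCh38.p14.

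A linear model was fitted with limma 3.58.1 (R 4.3.3, mean-variance trend, no replicate block) to log2(normalized count + 1), for the 15251 genes whose mean reached 10. Fold changes are on this scale, which understates those of low genes. Alternatives were edgeR 4.0.16 and DESeq2 1.42.0 fitted to the recovered reads, other pseudocounts and minimums, a replicate block, removal of a length trend by loess, other thresholds and each library left out. The scripts were tested on simulated data. The members and lists were chosen with earlier results of these data known. Named are the 10 genes, EZH2, the called genes and extremes of each list, the closest patterns, and some list genes chosen after their values were seen, such as PAX3, KIT and LEF1. Some genes of these lists are not reported here.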

Additional observations from a re-analysis of the deposited data

How the results depend on the processing

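TYRP1 was higher and past the threshold under all 17 alternatives run, its log2 fold change lying between 1.57 and 1.72 and an adjusted p from 1.36e-24 to 0.0506, the last without shEZH2 replicate 3. TYR was lower under all 17, from -1.22 to -0.84, with an adjusted p from 2.43e-06 to 0.226. MLANA was not called under 9 of 17, with an adjusted p from 0.0237 to 0.443. MITF, SOX10, DCT and PMEL kept their direction and were called under none. With the length trend removed, GPR143 moved to -0.0052 and OCA2 to -0.045. The number of the 10 genes called higher fell from 2 to 1 with each of edgeR's TMM, RLE and upper-quartile factors and with a mean of at least 50. Over all genes, 996 to 1086 of 15251 were called higher with those factors, and 803 of 11891 with that mean. An adjusted p left 1 higher and 0 lower of the 10, and 345 higher and 279 lower of all genes. A log2 fold change above 1 left 1 and 0 of the 10, and 463 and 335 of all genes. With each library left out, 1 to 3 of the 10 were higher and 1 lower. Over all 15251 genes tested, 849 to 1525 were then higher and 773 to 1318 lower. On the recovered reads, edgeR with TMM called 1086 genes higher and 1191 lower, and DESeq2 1045 and 1321. Over all genes the median change (log2) ran from -0.02 to 0.05 over the settings. With a replicate block, the same counts of 2 higher and 1 lower were found among the 10, and 1322 higher and 1112 lower genes in all. TYRP1 then had an adjusted p of 0.0191 and TYR of 0.0630. The replicate numbers were not treated as pairs in the main fit. Deviations of same-numbered libraries correlated by 0.28, 0.22 and -0.11, and 4 of 6 libraries matched best with their own number. These values do not settle whether the libraries were paired. The cause of these shifts was not tested. In shallow genes such as TFEC, the count limits the precision of the fold change.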
